A study of Homo sapiens with 4 samples.

Results

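The genes described here are regulators and target genes of the tumour suppressor p53. Of 31 genes chosen by name, 28 had at least 1 probe set annotated with a single gene symbol equal to theirs, among 19775 genes so annotated on the array. They carried 80 of the 54613 probe sets tested, every one of which was kept. BTG2, BBC3 and FDXR had no such probe set, so their expression was not analysed here. The study introduced GFP, as the control, or the zinc finger protein ZNF750 by lentivirus into CaSki cells, a papillomavirus-positive line from a cervical squamous carcinoma, and asked which genes respond to ZNF750. RNA from 2 cultures labelled GFP and 2 labelled ZNF750 was hybridized to 1 single-colour Affymetrix HG-U133 Plus 2.0 array each. Both groups are thus transduced CaSki cells, and the medium is listed with 0% serum for both. The labels give neither the time after transduction nor whether the cells were a clone or a pool. With 2 arrays per group, the p-values rest on the spread between these arrays, with variance borrowed from probe sets of similar level. They do not measure any spread beyond these arrays.

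p53 is a transcription factor that is kept low by MDM2, a ubiquitin ligase, and by its partner MDM4. MDM2 is itself a p53 target, so both form a feedback loop. In cells with a high-risk papillomavirus, the viral E6 protein recruits the ubiquitin ligase UBE3A to p53, which is then degraded. The targets include genes that hold the cell cycle, promote cell death, repair DNA and adjust metabolism, and several of them are also under the control of other factors.

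Some facts of the whole series bear on every value below. The only ZNF750 probe set (219995_s_at) read 2.13 and 2.37 log2 units with GFP and 2.23 and 2.29 in the ZNF750-labelled arrays, near the lowest value of the table. The groups overlapped, with a difference of 0.0037 ± 0.11 (limma SE), so the introduced gene was not seen to differ on this probe set and the labels were not borne out by it. Whether its probes match the introduced sequence was not examined, and "with ZNF750" below means the arrays so labelled. The 6 epithelial markers had mean levels of 11.11 to 12.97 log2 units, their summed linear signal was 29180 to 29530 with GFP and 30840 to 30870 with ZNF750, and KRT5 (0.24) and KRT19 (0.16) were called higher and KRT18 (-0.34) lower. The 10 markers of fibroblasts, leukocytes and endothelium lay between 2.70 and 8.36, the highest being COL1A1, and 0 of these were called (limma, 1 of 10 at a raw p under 0.05, COL1A2, by 0.48). The summed signal of the 5 fibroblast markers was 363.9 to 434.7 with GFP and 440.5 to 476.3 with ZNF750, without overlap, while the sums of the leukocyte and endothelial markers overlapped. Their part in the results was not tested. Without detection calls it is not known which of these are above background. ACTB has control probe sets at both ends of its transcript, and the 3′ end exceeded the 5′ end by 0.64 log2 units more in the ZNF750-labelled than in the GFP arrays, a gap that grows as RNA degrades. For GAPDH this gap was 0.20 log2 units larger with ZNF750. The added control bioB read 8.751 and 8.835 with GFP and 9.103 and 9.28 with ZNF750, a difference of 0.40. The groups did not overlap on any of these controls, and the part of these shifts in the results was not tested. In RNA from a whole culture, fewer cells expressing a gene and less of its RNA per cell cannot be told apart.

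By their brightest probe set, 7 of the 28 measured genes were higher in the ZNF750-labelled arrays, 4 were lower and 17 did not pass (limma, adjusted p under 0.05 over all probe sets). Those that rose were TP53INP1 (1.85-fold), RRM2B (1.60-fold), MDM2 (1.42-fold), SESN2 (1.40-fold), ZMAT3 (1.36-fold), GADD45A (1.29-fold) and PHLDA3 (1.20-fold). Those that fell were CCNG1 (1.51-fold lower), MDM4 (1.43-fold lower), FAS (1.41-fold lower) and TIGAR (1.34-fold lower). Canonical targets therefore moved in both directions, and the median difference of the 28 genes was -0.013 log2 units, against 0.036 over all genes. The 7 that rose are 25% of the measured members, where 6.39% of all genes rose, and the 4 that fell are 14.3%, where 8.75% of all genes fell. Because 26 of the 28 genes were brighter than the median probe set, a closer background is that of genes of such brightness, of which 8.67% rose and 13.4% fell. Against it the share of the 26 brighter members that fell (15.4%) lay near the background, and the share that rose (26.9%) lay above it. No test of this difference was made, since the genes were chosen with results of these arrays known.

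Counted over probe sets, 12 of the 80 rose (15%, against 4.3% of all probe sets) and 7 fell (8.75%, against 7.19%). The groups did not overlap for 48 of the 80 probe sets (60%), a share close to the 54.2% of all probe sets, so a clean separation of 2 arrays from 2 carries little by itself. Lower calls made up 62.6% of all calls, but 53.1% when the values were quantile normalized again and 46.2% when each array was centred on its brighter probe sets. All 19 called member probe sets kept their direction with any array left out. None of the 19 passed without GFP replicate 1 or without GFP replicate 2, where the table as a whole gave 11 and 9 calls. Of these 19, 6 passed without ZNF750 replicate 1 and 3 without ZNF750 replicate 2.

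**Figure D1:**
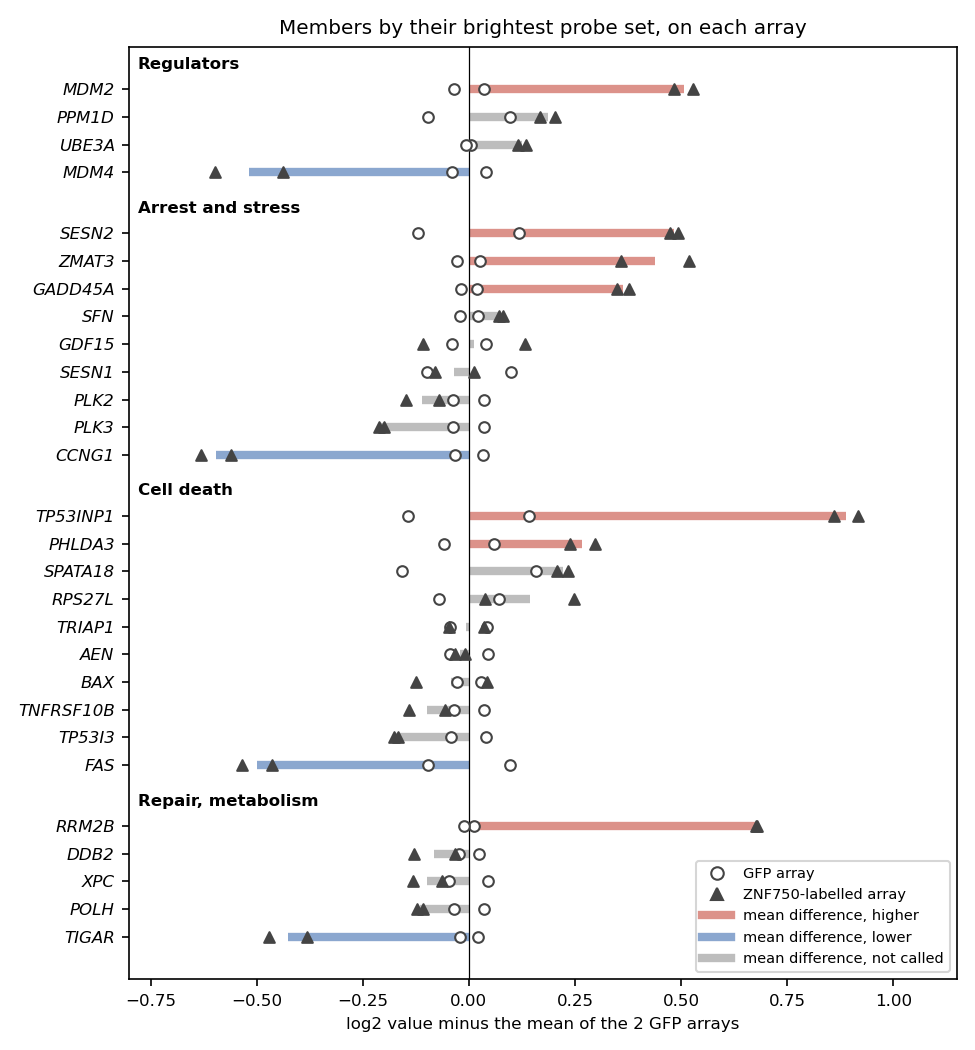
The plot gives, for each of the 28 measured genes, the log2 value of its brightest probe set on every array minus the mean of the 2 GFP arrays. Open circles are GFP arrays, triangles ZNF750-labelled arrays, and bars the mean difference, red for the 7 genes called higher, blue for the 4 called lower and grey for the 17 not called.

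The negative regulators MDM2 and MDM4 moved in opposite directions. The brightest MDM2 probe set (229711_s_at) read 9.67 and 9.74 with GFP and 10.19 and 10.23 with ZNF750. Both ZNF750-labelled arrays lay above both GFP arrays, by 0.51 ± 0.054 log2 units (limma SE, adjusted p = 0.00226). MDM2 has 10 probe sets, of which 3 rose and 0 fell (limma, 0 also at a raw p under 0.05). The next brightest (225160_x_at) rose by 0.35 ± 0.079, from 8.65 and 8.55 to 8.86 and 9.04. A dim one (238733_at) rose 2.26-fold, by 1.18 ± 0.14, from 4.02 on both GFP arrays to 5.36 and 5.03. It was the largest rise of any member probe set. The equal GFP values of 238733_at are a trait of the deposited table, where 340 probe sets repeat a value across both GFP arrays, and RMA understates the change of a gene that dim. The other 7 MDM2 probe sets did not pass, with differences from -0.07 to 0.20, and 6 of these 7 had a mean below 6 log2 units.

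MDM4, which inhibits the transcriptional activity of p53, gave the reverse picture on 1 of its 6 probe sets. That probe set (236814_at), its brightest, read 9.55 and 9.47 with GFP and 9.07 and 8.91 with ZNF750, a difference of -0.52 ± 0.072 (adjusted p = 0.00539). The next brightest (225740_x_at) read 8.99 and 8.88 with GFP and 8.89 and 8.94 with ZNF750. There the groups overlapped, and the difference was -0.02 ± 0.066. A dimmer one (241876_at) went the other way, from 5.35 and 5.27 to 5.52 and 5.77 (0.33 ± 0.12), and did not pass, although its raw p was under 0.05. The MDM4 fall thus rests on 1 probe set of 2 with similar brightness. The mean over all probe sets of a gene gave -0.05 for MDM4 and 0.24 for MDM2, neither of which passed.

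UBE3A, the ligase that papillomavirus E6 uses, did not pass on any of its 8 probe sets (limma, 2 at a raw p under 0.05). Its brightest (211285_s_at) read 10.77 and 10.76 with GFP and 10.90 and 10.88 with ZNF750, a difference of 0.13 ± 0.043 (adjusted p = 0.114), and the next (213291_s_at) differed by -0.24 ± 0.067 (adjusted p = 0.0614). The call of the brightest depended on scaling: 211285_s_at passed as higher with cyclic loess (0.19), with a repeated quantile normalization (0.19) and with centring on the brighter probe sets (0.18). The 2 brightest UBE3A probe sets therefore pointed in opposite directions. PPM1D, a phosphatase that is induced by p53 and dampens its signalling, differed by 0.19 ± 0.087 and 0.21 ± 0.10 on its 2 probe sets, neither passing, although on both the ZNF750-labelled arrays lay above the GFP arrays. Of the 4 regulator calls, 0 passed without GFP replicate 1 or GFP replicate 2, 3 without ZNF750 replicate 1 and 1, MDM2 238733_at, without ZNF750 replicate 2.

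The promoter windows of the members were searched for the p53 response element, since MDM2 and FAS, which are both p53 targets, moved in opposite directions. The element is a pair of decamers of the pattern RRRCWWGYYY (R is A or G, W is A or T, Y is C or T). This pattern, though not each decamer that matches it, reads the same on both strands. RefSeq windows of GRCh38.p14 were found for 26 of the 31 genes by symbol, and the 250 bases before each start were searched. A single decamer with exact letters occurred in 6 of the 26 genes (23.1%), namely AEN, FAS, FDXR, PLK2, RPS27L and SESN1, against 6.8% of all genes with a window. An exact pair occurred in 0 of the 26 and in 9 of 27305 genes. A pair separated by 0 to 13 bases with at most 2 departures in all from its letters, a setting chosen after seeing the windows, occurred in 4 of the 26 (15.4%), namely AEN, FAS, FDXR and MDM2, against 3.07% of all genes. The members were chosen by name as regulators and targets of p53, so a share above that of all genes is no independent result. FDXR is among the matches although its expression was not measured. A match is a description of the letters, not evidence of binding. The matches are given for a member that rose, a member that fell and a member that did not pass, with up to 30 flanking bases, 5′ to 3′ on the plus strand and with the matched decamers in capitals. For MDM2 this is chr12:68808893-68808972, which lies before the starts of its internal promoter, for FAS chr10:88991279-88991358 and for AEN chr15:88621276-88621339.
MDM2: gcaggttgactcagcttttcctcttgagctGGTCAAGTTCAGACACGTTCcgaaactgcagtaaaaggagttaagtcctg
FAS: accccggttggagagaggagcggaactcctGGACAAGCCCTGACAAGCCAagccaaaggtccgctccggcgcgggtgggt
AEN: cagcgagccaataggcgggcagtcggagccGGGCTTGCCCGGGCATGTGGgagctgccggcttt
Each of the 3 had a spacer of 0 bases and 2 departures. MDM2 rose 1.42-fold, FAS fell 1.41-fold and AEN differed by -0.02 ± 0.067. Whether such matches go with the direction of change was not tested.

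Among 9 measured genes of cell cycle arrest and stress signalling, by brightest probe set 3 rose, 1 fell and 5 did not pass, and the median difference was 0.012. Over all genes 6.39% rose and 8.75% fell, and with so few genes in the group its share was not compared with these. SESN2, a stress-induced inhibitor of mTORC1 signalling, rose on both of its probe sets. Probe set 223196_s_at read 7.93 and 8.16 with GFP and 8.52 and 8.54 with ZNF750, a rise of 0.48 ± 0.089 (adjusted p = 0.0152). Probe set 223195_s_at read 7.65 and 8.05, then 8.30 and 8.42, a rise of 0.51 ± 0.13 (adjusted p = 0.0433). In both, the arrays separated, but the GFP arrays were spread more widely than the ZNF750-labelled ones, and leaving out 1 array moved 223195_s_at between 0.31 (without GFP replicate 1) and 0.71 (without GFP replicate 2). Its paralog SESN1 read 7.08 and 7.28 with GFP and 7.10 and 7.19 with ZNF750, and the groups overlapped.

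ZMAT3, an RNA-binding zinc finger protein, rose on 2 of its 5 probe sets. Probe set 227221_at read 7.77 and 7.72 with GFP and 8.26 and 8.10 with ZNF750 (0.44 ± 0.081, adjusted p = 0.0153), and 228315_at read 7.44 and 7.41, then 7.86 and 7.88 (0.44 ± 0.072, adjusted p = 0.00955). The other 3 ZMAT3 probe sets had differences of 0.14 to 0.27, all positive, and did not pass. GADD45A, a stress protein that acts on growth arrest and DNA repair, was among the brightest members. It read 11.75 and 11.79 with GFP and 12.12 and 12.15 with ZNF750, a rise of 0.36 ± 0.038 (adjusted p = 0.00214) with both groups tightly spread.

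CCNG1, encoding cyclin G1, had the largest fall among the brightest probe sets of the members. Its only probe set (208796_s_at) read 10.47 and 10.40 with GFP and 9.88 and 9.81 with ZNF750, a fall of 0.60 on the log2 scale (SE 0.054, adjusted p = 0.00132). The groups lay far apart relative to the spread within each. CCNG1 is a canonical p53 target, and it moved against MDM2 here.

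The other arrest and stress genes changed little. SFN, encoding stratifin, an epithelial inhibitor of the cell cycle, was the brightest member. Both ZNF750-labelled arrays lay above both GFP arrays on its 3 probe sets, by 0.08 ± 0.027, 0.12 ± 0.027 and 0.15 ± 0.054, and only 33323_r_at passed (adjusted p = 0.0351). That probe set read 14.23 and 14.26 with GFP and 14.35 and 14.37 with ZNF750, among the highest values of the table. SFN 33322_i_at passed after cyclic loess (0.14) and centring on brighter probe sets (0.13). The kinase genes PLK2 (-0.11 ± 0.049) and PLK3 (-0.21 ± 0.095) did not pass by their brightest probe set. The other 2 PLK3 probe sets also did not pass and had the opposite sign (0.13 ± 0.11 on each), with the groups separated on all 3. GDF15, a secreted stress cytokine and sensitive p53 target, was dim at 4.89 and 4.81 with GFP and 4.98 and 4.74 with ZNF750, and 0 of its 3 probe sets passed (limma, 0 also at a raw p under 0.05). Of the 7 calls among arrest and stress probe sets, 0 passed without GFP replicate 1 or GFP replicate 2, 2 (GADD45A and CCNG1) without ZNF750 replicate 1 and 1 (CCNG1) without ZNF750 replicate 2.

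**Figure D2:**
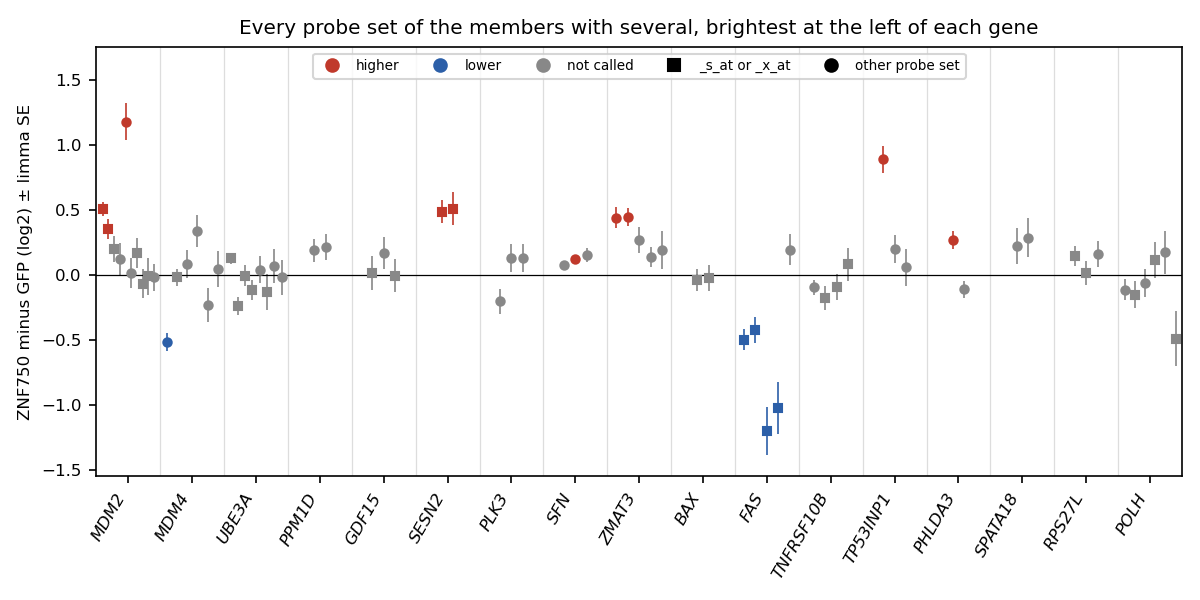
The plot gives the difference between ZNF750-labelled and GFP arrays in log2 units, with limma's standard error as bars, for every probe set of the 17 measured members with more than 1, ordered by brightness within a gene. Squares are _s_at or _x_at probe sets, whose probes can match more than 1 transcript, and red, blue and grey mark called higher, called lower and not called. FAS has 4 blue squares, MDM2 3 red points among 10, and no gene has both red and blue points.

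Of 10 measured genes of cell death, by brightest probe set 2 rose, 1 fell and 7 did not pass, and the median difference was -0.013. Beside the 6.39% of all genes that rose and the 8.75% that fell, counts this small say little about the group. TP53INP1, which promotes p53-dependent death and autophagy, had the largest rise by brightest probe set of the 28 genes. Probe set 225912_at read 7.35 and 7.07 with GFP and 8.12 and 8.07 with ZNF750, a rise of 0.89 ± 0.10 (adjusted p = 0.00321). Its dimmer probe sets 244721_at (0.20 ± 0.11) and 235602_at (0.06 ± 0.14) did not pass. PHLDA3, a repressor of AKT signalling, rose on 218634_at from 8.46 and 8.58 to 8.82 and 8.76 (0.27 ± 0.069, adjusted p = 0.0492). Its other probe set, 235534_at, of nearly the same brightness, read 8.29 and 8.35 with GFP and 8.20 and 8.21 with ZNF750. This is a difference of -0.11 ± 0.067 with the opposite sign, so the PHLDA3 call rests on 1 of 2 probe sets and lies just under the threshold. Averaged over both probe sets, PHLDA3 differed by 0.08 and was not called.

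FAS, the death receptor for FAS ligand, fell on 4 of its 5 probe sets. The 2 brightest fell by 0.50 (204780_s_at, SE 0.080, adjusted p = 0.00895) and by 0.43 (204781_s_at, SE 0.098, adjusted p = 0.0326) on the log2 scale. On 204780_s_at the arrays read 9.11 and 8.92 with GFP and 8.55 and 8.48 with ZNF750. The 2 less bright ones fell more, 216252_x_at 2.31-fold (-1.21 ± 0.18, adjusted p = 0.00764) and 215719_x_at 2.04-fold (-1.03 ± 0.20, adjusted p = 0.0195). On 216252_x_at the arrays read 7.18 and 6.72 with GFP and 5.95 and 5.54 with ZNF750, the largest fall of any member probe set. All 4 were _s_at or _x_at probe sets. The fifth, 233820_at, without such a suffix, was dim and read 5.25 and 5.20 with GFP and 5.31 and 5.52 with ZNF750, and did not pass.

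The other death receptor among the members, TNFRSF10B, which binds TRAIL, differed by -0.10 ± 0.060 on its brightest probe set (209295_at, 9.56 and 9.49 with GFP, 9.47 and 9.39 with ZNF750), and 0 of its 4 probe sets passed (limma, 0 also at a raw p under 0.05). BAX, the pore-forming effector of the mitochondrial route to death, read 7.68 and 7.73 with GFP and 7.58 and 7.75 with ZNF750, and its groups overlapped on both probe sets. AEN, a nuclease of apoptotic cells, and TRIAP1, an inhibitor of apoptosis, overlapped between the groups, with differences of -0.02 ± 0.067 and -0.0058 ± 0.055. TP53I3, an oxidoreductase, differed by -0.17 ± 0.061 and RPS27L, a paralog of a ribosomal protein, by 0.14 ± 0.077. SPATA18, a mitochondrial quality control gene, was dim and differed by 0.22 ± 0.14. BAX, AEN, TRIAP1, TP53I3, RPS27L and SPATA18 thus had no probe set that passed (limma), and TP53I3 was the only 1 of these with a raw p under 0.05. Of the 6 calls among death probe sets, 0 passed with any 1 of the 4 arrays left out, and every one kept its direction.

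Of 5 measured genes of DNA repair and metabolism, 1 rose, 1 fell and 3 did not pass. Beside the 6.39% of all genes that rose and the 8.75% that fell, such counts say little about the group. RRM2B, the p53-inducible subunit of ribonucleotide reductase, which supplies nucleotides for repair, read 8.18 and 8.15 with GFP and 8.84 and 8.85 with ZNF750. Its rise of 0.68 ± 0.062 (adjusted p = 0.00140) was large against a within-group spread of at most 0.018 (SD, n = 2). TIGAR, a phosphatase that lowers glycolytic flux, moved the other way, from 9.76 and 9.72 with GFP to 9.36 and 9.27 with ZNF750, a fall of 0.43 on the log2 scale (SE 0.058, adjusted p = 0.00515). The nucleotide excision repair genes DDB2 (-0.08 ± 0.058) and XPC (-0.10 ± 0.073), which recognise damaged DNA, did not pass. POLH, a translesion polymerase, did not pass on any of 6 probe sets (limma, 0 also at a raw p under 0.05), with differences from -0.49 ± 0.21 to 0.17 ± 0.17. DDB2, XPC and POLH thus showed no call, and the 2 called genes of this group were RRM2B, of nucleotide supply, and TIGAR, of carbon metabolism. RRM2B passed without either ZNF750 replicate but not without GFP replicate 1 or GFP replicate 2, and TIGAR did not pass with any 1 of the 4 arrays left out.

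Of the 17 members with several probe sets, 9 had differences of both signs among them (52.9%, against 53.8% of the 10523 genes with several probe sets). Calls in both directions occurred in 0 of the 17 (limma) and in 0.732% of the 10523. Brightness went with the calls. Of the 56 member probe sets at or above the median level of 5.47 log2 units, 18 were called (32.1%, against 20.3% of all such probe sets), and of the 24 dimmer ones 1 was, MDM2 238733_at.

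**Figure D3:**
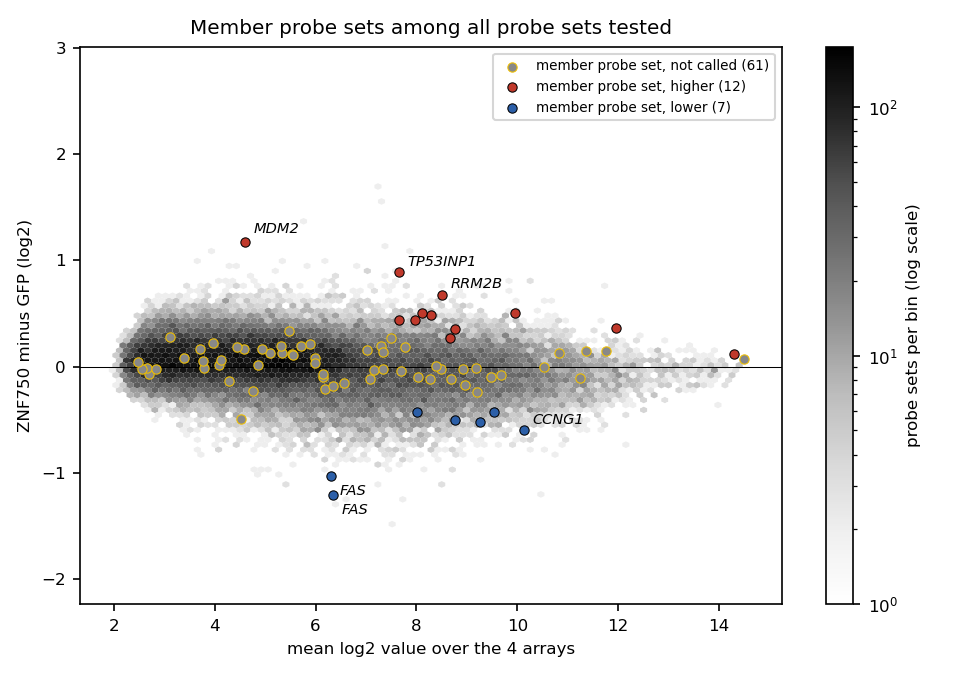
Each point is a member probe set, placed by its mean log2 value over the 4 arrays and its difference between ZNF750-labelled and GFP arrays, over a grey density of all 54613 probe sets. The 12 red and 7 blue points are the called probe sets, nearly all of which lie to the right of 5.47, and 238733_at of MDM2 stands alone at the dim end.

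The rest of the pathway was read from a list of 61 genes that are not among the 31, of which 56 were measured. This list too was chosen with earlier results of these data known, and no test of its shares was made. Of 35 other p53 targets, by brightest probe set 10 rose (28.6%, against 6.39% of all genes and 8.67% of the brighter ones), 2 fell (5.71%, against 8.75% and 13.4%) and 23 did not pass. The median difference was -0.0055. The 35 include TLR3, TP53AIP1, CYFIP2 and EDA2R, which lay below the median level, so the brighter genes are not a matched background. CDKN1A, encoding the cyclin-dependent kinase inhibitor p21, had the largest rise. It read 9.80 and 9.87 with GFP and 10.64 and 10.63 with ZNF750, a rise of 0.80 ± 0.050 (1.75-fold, adjusted p = 0.000368). SUSD6 (0.41 ± 0.072) and PIDD1, which builds the caspase-2 activating complex (0.38 ± 0.078), also rose. PMAIP1, encoding the pro-death BH3-only protein NOXA, rose on both of its probe sets, by 0.37 ± 0.057 and 0.72 ± 0.060. ANKRA2 (0.34 ± 0.086) and PML, the organiser of PML bodies (0.32 ± 0.069), rose as well, although PML had 1 of 10 probe sets called higher and 1 called lower. LPIN1, a phosphatidate phosphatase (-0.52 ± 0.087), and STEAP3, a metalloreductase (-0.39 ± 0.067), fell. Beyond these 2, FBXO22 and IKBIP each had 2 probe sets called lower, and SULF2 and TNFRSF10A 1 each, none being the brightest. No target beyond the 10 had a probe set called higher. The low share that fell thus depended on the choice of probe set. With the mean of probe sets per gene, 6 genes of both lists rose and 6 fell, against 12 and 5 by the brightest.

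Of 21 other regulators of p53, by brightest probe set 2 rose (9.52%), 3 fell (14.3%) and 16 did not pass, and the median difference was -0.057. These shares lay near those of the brighter genes (8.67% and 13.4%). Among the 16, RCHY1 (212749_s_at, -0.61 ± 0.096), COP1 (1552617_a_at, -0.52 ± 0.11) and BRD7 (222737_s_at, -0.49 ± 0.11) each had 1 other probe set called lower. CHEK1, described below, had 2, and none of the 16 had a probe set called higher. USP7, a deubiquitinase that stabilises both MDM2 and p53, rose from 9.66 and 9.62 to 9.94 and 10.04 (0.35 ± 0.057, adjusted p = 0.00926), on 1 of 4 probe sets. The ubiquitin ligase HUWE1 rose by 0.15 ± 0.037 on 1 of 5 probe sets (207783_x_at), while the next brightest (208598_s_at) differed by -0.09 ± 0.050 and did not pass. The kinase ATM, which activates p53 after DNA breaks, fell by 0.49 (SE 0.097, adjusted p = 0.0203) on 1 of 6 probe sets, and the acetyltransferase KAT5 by 0.36 (SE 0.069) on 2 of 3, both on the log2 scale. CDKN2A, whose locus encodes the MDM2 inhibitor ARF as well as the kinase inhibitor p16, fell by 0.29 (SE 0.045, adjusted p = 0.00789) on the log2 scale, from 11.09 and 11.15 to 10.82 and 10.84. Probe positions were not used, so which of these products it reads is not known. Of the 17 calls in both lists, 1 (CDKN1A) passed without either ZNF750 replicate, and 0 passed without GFP replicate 1 or GFP replicate 2.

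**Figure D4:**
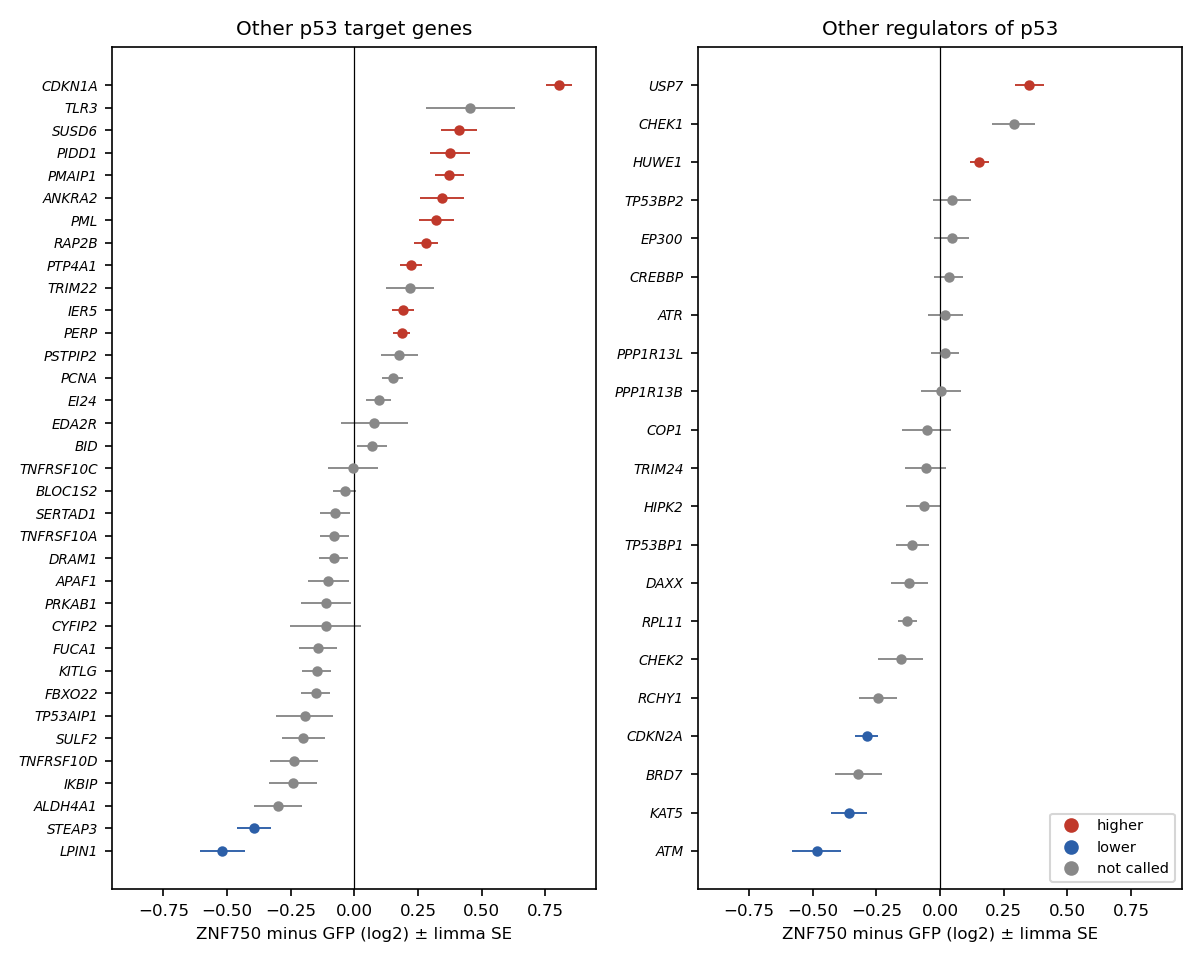
The panels give the difference between ZNF750-labelled and GFP arrays in log2 units, with limma's standard error, for the brightest probe set of 35 other p53 target genes and 21 other regulators. Red points were called higher (10 targets and 2 regulators), blue points lower (2 and 3), and CDKN1A stands farthest to the right.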

How the data were processed

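The table deposited by the authors holds log2 values of 54675 probe sets on 4 arrays. The submitters' processing notes name RMA without a version. RMA corrects background, quantile normalizes and summarises probes, and it understates the changes of dim genes. Gene names came from the platform annotation, where 41091 probe sets carried 1 symbol, 1801 several and 11721 none, of which only the first kind was named. Of these, 41037 matched a RefSeq gene, with 0 symbols changed. The 62 control probe sets were left out.

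Differences are ZNF750 minus GFP, fitted over 54613 probe sets with limma 3.58.1 in R 4.3.3 (lmFit, eBayes with an intensity trend, 2 residual degrees of freedom), two-sided with Benjamini-Hochberg adjustment over all of them and called at an adjusted p under 0.05. Values after ± are limma's standard errors (n = 2 arrays per group) unless marked SD. A gene was counted by its probe set with the highest mean over the 4 arrays. The limma fit was tested on simulated data, and the promoter search was not. The number of arrays limits precision, and no detection calls were used.

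Every member was named, with CDKN1A, up to 6 higher and 6 lower genes of each list of other targets and other regulators, and ZNF750. Listed genes called only on a probe set other than their brightest were named after their values were seen. The members and lists were chosen with earlier results of these data known. Alternatives covered the variance prior, dim probe sets, the choice of probe set, scaling, the replicate block, thresholds and leaving out each array.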

Additional observations from a re-analysis of the deposited data

How the results depend on the processing

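The counts depended most on the arrays and on the variance prior. With 1 array left out (limma), member probe sets that rose numbered 0 to 4 and those that fell 0 to 2, against 12 and 7 with all arrays. Member genes that rose numbered 0 to 3 and those that fell 0 to 2, against 7 and 4. Other pathway genes that rose numbered 0 to 1 and those that fell 0, against 12 and 5. At an unadjusted p under 0.05, 15 member probe sets rose and 9 fell without GFP replicate 1, 13 and 8 without GFP replicate 2, and of the other pathway genes 6, 12, 10 and 5 fell without GFP replicate 1, GFP replicate 2, ZNF750 replicate 1 and ZNF750 replicate 2. Such a fit assumes that the lone array varies like the other group. Without the intensity trend 4 member probe sets rose and 1 fell, 3 member genes rose and 1 fell, and 1 other gene rose and 0 fell (11 and 9 at an unadjusted limma p under 0.05). Without _s_at and _x_at probe sets, which leaves fewer probe sets in the fit, 7 member probe sets rose and 2 fell, 4 member genes rose and 2 fell, and 5 other genes rose. At an adjusted p under 0.01, 6 member probe sets and 4 member genes rose, and 3 other genes rose and 1 fell. Under 0.10, and with dim probe sets left out, 9 other genes fell. With the mean of probe sets 6 other genes rose and 6 fell. The cause of these shifts was not tested.

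The 19 called member probe sets kept their direction in each fit that held them: without the trend, without dim or shared probe sets, over genes, under the 3 scalings, with the block and with any array left out. Over 36 member probe sets and these settings, 318 values kept direction and side, 88 lost the call, 5 gained one and 22 changed sign with no call on either side. The sign changed under the mean of probe sets for PLK3 (0.016) and UBE3A (-0.037), and under the scalings (cyclic loess, a second quantile normalization, centring on brighter probe sets) for BAX (0.020 and 0.012 under the last pair), SESN1 (0.018 and 0.019, likewise), TRIAP1 (0.061, 0.074 and 0.047), AEN (0.032, 0.037 and 0.032) and GDF15 (-0.049 and -0.034 under the first pair). With 1 array left out it ranged across 0 for BAX (-0.12 to 0.043), SESN1 (-0.13 to 0.064), TRIAP1 (-0.050 to 0.038), AEN (-0.066 to 0.024) and GDF15 (-0.11 to 0.13).

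The titles number the replicates 1 and 2 in both groups, but no label says what the numbers share, and the deviations of same-numbered arrays correlated at 0.134 over probe sets. With the replicate block 11 member probe sets rose and 7 fell, 6 member genes rose and 4 fell, and 11 other genes rose and 5 fell. The block ended the calls of PHLDA3 218634_at (limma adjusted p = 0.0728), MDM2 225160_x_at (0.0681), FAS 204781_s_at (0.0717), HUWE1 and ANKRA2, and all 5 kept their direction.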

Other observations

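The other receptors for TRAIL did not pass by their brightest probe set: TNFRSF10A, a death receptor, differed by -0.08 ± 0.057, and TNFRSF10C and TNFRSF10D, decoy receptors, by -0.0055 ± 0.097 and -0.24 ± 0.095. Of the 3 TNFRSF10A probe sets, however, 1552648_a_at was called lower (-0.38 ± 0.075, limma adjusted p = 0.0191), and the ZNF750-labelled arrays lay below the GFP arrays on all 3. CHEK1, a checkpoint kinase, is named here after its values were seen, because its probe sets disagreed. Its brightest (238075_at) read 8.40 and 8.17 with GFP and 8.59 and 8.56 with ZNF750 and did not pass (0.29 ± 0.086). Of its other 3 probe sets 2 passed as lower. These were 205394_at (-0.44 ± 0.092, limma adjusted p = 0.0245) and 205393_s_at (-0.74 ± 0.12, limma adjusted p = 0.00844). The dimmest, 229423_at, did not pass (0.13 ± 0.12).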
